A study of Mus musculus with 6 samples.

Results

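Isolated shared regions are stretches of the genome that were called as accessible in every library of the series and had no other called region nearby. Regions were selected on the peak calls: touching or overlapping peaks of chromosomes 1 to 19 were joined across the 6 libraries, and a merged region was kept when all 6 libraries had a peak in it and no other merged region, called in any library, lay within 25000 bp on either side. Of 68364 merged regions, 11379 were called in all 6 libraries, and 2244 of these were isolated, or 19.7%. The other 9135 regions called in all 6 are referred to as the other shared regions. Since these calls chose the members, the widths and scores of isolated beside other shared regions are descriptions without a test, and only differences between the cFos and EYFP libraries, which the choice did not use, were tested.

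The libraries are ATAC-seq libraries from the microdissected dentate gyrus of adult mice, 8 weeks old. ATAC-seq uses the transposase Tn5 to insert sequencing adapters into open DNA. Adeno-associated virus (AAV) had delivered the fluorescent protein EYFP, as the control, in 3 animals, and cFos, a subunit of the AP-1 transcription factor that neurons make when activated, in 3 others. Each library came from its own animal. The labels do not say whether the cFos animals also received EYFP, which promoter drove either protein, or which cells took up the virus. The strain label reads C57BL/6 for the first library and carries a different final number for each of the others.

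Accessible regions in a mammalian genome include promoters, enhancers and the binding sites of insulator proteins such as CTCF. Promoters and CTCF sites tend to be open in many cell types, whereas enhancers are more often open in a few. Regulatory elements are unevenly spaced, crowding around gene-rich and highly regulated loci and thinning out in gene-poor stretches. No genome or annotation of the mm9 build was used here, so the regions are given by position (mm9, 1-based) and their sequence and genes were not analysed here.

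The deposited lists held 24040 to 44321 peaks per library. On chromosomes 1 to 19 the isolated shared regions made up 5.28% of the regions called in EYFP replicate 2, the longest list, and 9.89% of those in cFos replicate 2, the shortest. Read depth was unknown, because a peak list carries no read counts. In tissue, a weaker peak in every cell and a peak in fewer cells cannot be told apart.

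Being isolated was about as frequent among regions called in few libraries as among those called in all. Without the requirement of 6 calls, 18.5% of the 29906 regions called in 1 library had no other region within 25000 bp. The share was 17.1% of regions called in 2 libraries, 18.2% in 3, 17.5% in 4 and 17.4% in 5, beside 19.7% in 6. Over all merged regions it was 18.3%. The nearest other region of an isolated shared region had been called in a single library in 39.8% of cases and in all 6 libraries in 24.2%, against 41.6% and 19.9% for the other shared regions.

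The distance to the nearest other region had a median of 36804 bp among the isolated regions and exceeded 50 kb in 589 of them and 100 kb in 91. The nearest region that was itself called in all 6 libraries lay at a median of 82367 bp, against 40732 bp for the other shared regions. Isolated regions also stood next to each other. In 283 cases 2 isolated regions followed each other with nothing called in between, which involved 510 of the 2244, and the longest run held 11 in a row. The gaps in such pairs ranged from 25045 to 705810 bp with a median of 49506 bp.

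The limit of 25000 bp cut through a continuous range. Just inside it were regions on chr5:4103425-4105233, chr11:100870434-100871076 and chr1:58052420-58053287, with nearest distances of 25014, 25028 and 25031 bp and mean score percentiles of 95.4, 38.9 and 90.1. Just outside it were regions on chr13:64444849-64446008, chr5:52580912-52582535 and chr9:3334848-3336044, at 25000, 24997 and 24996 bp and mean score percentiles of 40.9, 84.3 and 71.9. The percentile is the rank of a region's highest peak score among the 11379 shared regions of the same library, from 0 for the lowest to 100 for the highest. The score is a value that the authors deposited with every peak. Because every library ranks the same 11379 regions, the percentiles of libraries with lists of different length are on 1 scale.

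Isolated regions were somewhat narrower than the other shared regions. The merged width had a median of 1071.5 bp, with a 10th to 90th percentile range of 659 to 1870.2 bp, against 1142 bp and 702 to 1973 bp for the other shared regions. Each library's own peaks gave the same order. The median peak width in isolated regions was 791, 947 and 831 bp in EYFP replicates 1 to 3 and 640, 616 and 708 bp in cFos replicates 1 to 3. In the other shared regions it was 831, 1003 and 859 bp in the EYFP and 667, 632 and 729 bp in the cFos libraries. The peaks of isolated regions were thus narrower in 6 of 6 libraries, by 16 to 56 bp, which is small beside the spread between regions. With a limit of 10 kb in place of 25 kb the order turned, and isolated regions were wider by 11.3 bp on average over the libraries, while with 50 kb the difference was -77.25 bp.

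The position of isolated regions was called about as precisely as that of the others. The stretch that all 6 libraries called had a median of 473 bp, or 46.3% of the merged width, against 491 bp and 45.6% in the other shared regions. The midpoints of the 6 libraries' calls spanned a median of 180.75 bp in isolated and 188.5 bp in other shared regions. At least 1 library had more than 1 peak in 222 isolated regions, or 9.89%, and in 10.0% of the others. In 17 isolated regions the 6 libraries had no base in common, so that the region was held together by partly overlapping peaks.

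Isolated regions ranked higher by score than the other shared regions in every library. Their median percentile was 55.5, 57.5 and 55.6 in EYFP replicates 1 to 3 and 54.2, 55.5 and 55.0 in cFos replicates 1 to 3. The other shared regions had medians of 48.5, 48.3 and 48.3 in the EYFP and 49.1, 48.5 and 48.8 in the cFos libraries. The gap was 6.95 ± 1.34 percentile points (SD, n = 6 libraries), from 5.11 in cFos replicate 1 to 9.19 in EYFP replicate 2. Median scores were 161.13 to 336.865 for isolated and 141.72 to 293.36 for other shared regions, depending on the library.

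**Figure D1:**
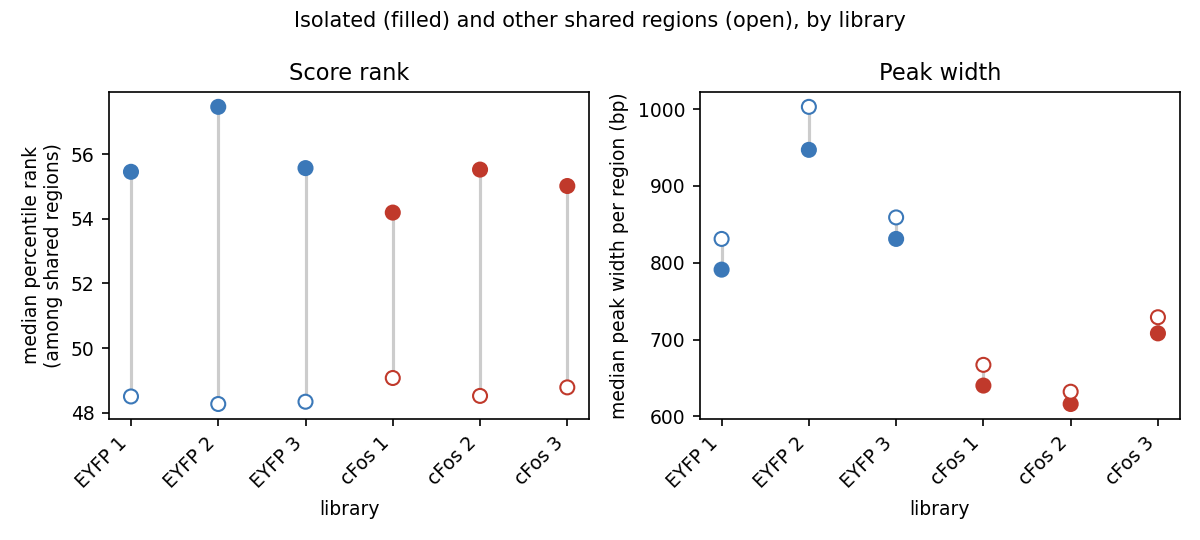
Median score percentile (left) and median peak width in bp (right) in each of the 6 libraries, with filled points for the 2244 isolated regions and open points for the 9135 other shared regions, EYFP in blue and cFos in red; the vertical axes do not start at 0. Filled points lie above open points in rank and below them in width in all 6 libraries.

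The gap in rank was then followed along the distance to the nearest other region. The 2295 shared regions with another region within 5 kb had a median of the mean percentile of only 33.9, and the 2936 at 5 to 10 kb had 47.0. The median was highest at 10 to 25 kb, with 53.2 for 3904 regions, and at 25 to 50 kb, with 53.0 for 1655 isolated regions. It was lower again, at 49.2 for the 498 isolated regions at 50 to 100 kb and at 47.3 for the 91 beyond 100 kb. The lowest ranks were thus those of regions with close neighbours, and isolated regions at 25 to 50 kb had a median close to that at 10 to 25 kb. Width did not follow the same course. Its median was 1098, 1167 and 1152 bp in the 3 nearer classes and then 1107, 1012.5 and 909 bp in the 3 isolated ones, so the most remote regions were the narrowest.

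**Figure D2:**
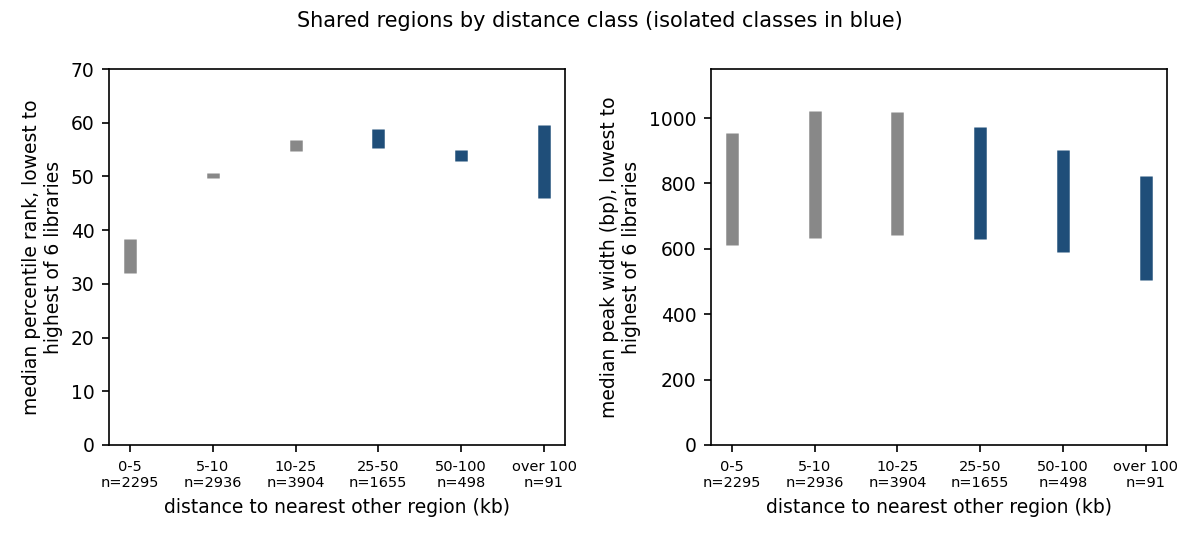
Shared regions sorted by the distance to the nearest other region (kb), with bars from the lowest to the highest of the 6 library medians for score percentile (left) and peak width in bp (right), isolated classes in blue and nearer classes in grey. Rank is lowest within 5 kb (library medians of 32.0 to 38.3), and the library medians at 10 to 25 kb (54.8 to 56.7) overlap those at 25 to 50 kb (55.4 to 58.8).

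The share of isolated regions was larger toward the top of the score ranking. When the shared regions were split into 10 equal classes by mean percentile, isolated regions made up 14.1% of the lowest class and 23.9% of the highest, with 15.3% over the lowest 3 and 22.2% over the highest 3. At the very top the share was larger, with 10 of the 20 highest-ranked shared regions and 31 of the highest 100 being isolated, against 4 of the lowest 20 and 15 of the lowest 100. Within each of the 10 classes isolated regions were narrower, by 48 to 128 bp in median merged width. In the lowest class the medians were 639 and 759 bp and in the highest 1575.5 and 1695 bp. Taken per library, isolated peaks were narrower in 59 of the 60 combinations of class and library.

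**Figure D3:**
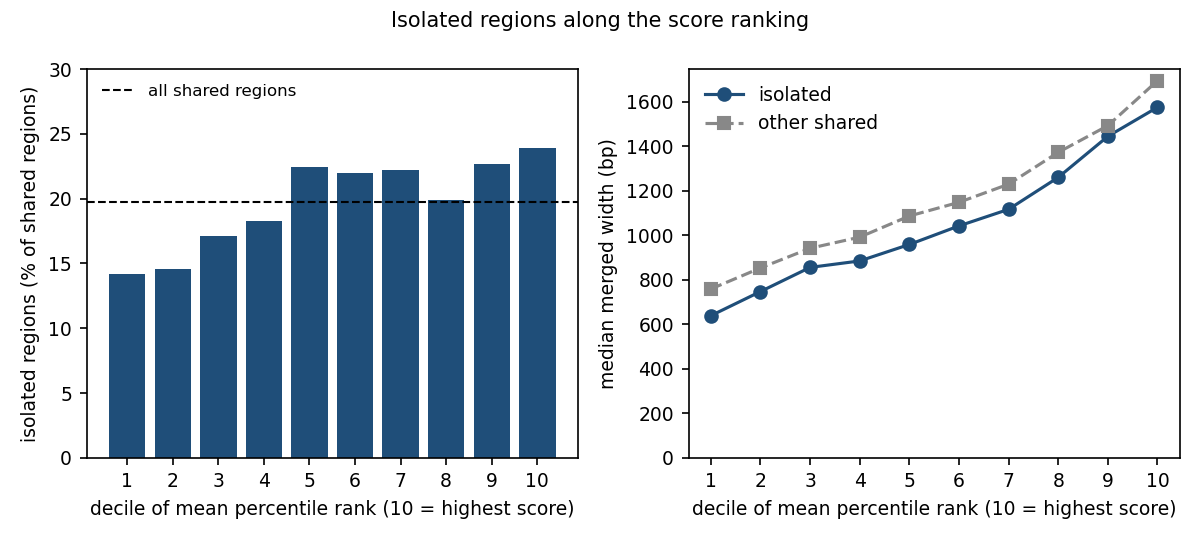
Shared regions in 10 classes of mean score percentile: left, the share that is isolated (%), with the share over all shared regions (19.7%) as a dashed line; right, the median merged width (bp) of isolated (circles) and other shared regions (squares). The share runs from 14.1% to 23.9%, and the circles lie below the squares in all 10 classes.

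The 8 highest-ranked isolated regions all had a mean percentile above 99.8 and were of very different widths. On chr2:22442618-22446139 and on chr12:98299330-98300264 the score was 3100, the highest in the lists, in all 6 libraries. They were 3522 and 935 bp wide, and the chromosome 12 region had nothing called for 389965 bp on its left and 94609 bp on its right. A second region on chromosome 12, from 3109782 to 3110262, was the first one called on that chromosome and only 481 bp wide. It scored 2511.01, 2619.05 and 2320.37 in EYFP replicates 1 to 3 and 2765.92, 2916.79 and 2696.88 in cFos replicates 1 to 3. The cFos scores were all above the EYFP scores there, but its rank among shared regions was the same in all 6 libraries.

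The next was on chr13:85265972-85267194, with scores of 1833.95, 1912.55 and 1939.63 in the EYFP and 1994.07, 1899.71 and 1970.92 in the cFos libraries, which overlapped. On chromosome 6 a region of 722 bp from 9839634 to 9840355 scored 1722.85, 1947.78 and 1576.63 in the EYFP and 1761.48, 1839.29 and 2159.77 in the cFos libraries, again with overlap. The region chr17:39979742-39985881 was the widest isolated region, at 6140 bp, and 5937 bp of it were called by all 6 libraries. Its scores were 1364.71, 1838.76 and 1631.45 in the EYFP and 1544.01, 1195.56 and 1648.89 in the cFos libraries, and nothing was called within 283865 bp.

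The other two were on chr4:118219459-118221485, with scores of 1335.82 to 1969.34 over the 6 libraries, and on chr2:69193324-69193915. That last region was 592 bp wide and scored 1173.93, 1500.12 and 1382.23 in the EYFP and 1572.63, 1627.18 and 1594.58 in the cFos libraries, so the groups did not overlap in score, with a difference of 0.0352 percentile points in rank. Narrow regions were rare this high in the ranking. Among the 272 isolated regions of the highest class 4 were narrower than 750 bp, and 3 of these were among the 8 just named, while 10 of the 865 other shared regions of that class were. No filter for sites that collect wrongly aligned reads was applied here. Whether any of the top-ranked regions is such a site was not tested.

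The 5 lowest-ranked isolated regions were 513 to 607 bp wide. They lay on chr6:109740041-109740568, chr16:87841111-87841623, chr18:20798366-20798961, chr8:29613868-29614474 and chr13:72906541-72907083, with mean percentiles of 3.587, 4.003, 4.139, 4.359 and 5.019. Several of their peaks scored close to 50, the lowest value in the lists. The chromosome 6 region, for example, scored 59.37, 158.55 and 62.61 in the EYFP and 52.18, 51.29 and 55.05 in the cFos libraries. A slightly weaker peak in 1 library would have removed such a region from the set.

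The 5 most isolated regions ranged from weak to among the strongest. The chromosome 19 region from 9556720 to 9557203 had nothing called for 338147 bp on the left and 346161 bp on the right. It scored 144.51, 90.56 and 55.68 in the EYFP and 192.38, 109.39 and 150.01 in the cFos libraries, and the groups overlapped. Next came the chromosome 17 region already described and one on chr7:11080130-11081169, which had a gap of 1764923 bp on its left and of 278017 bp on its right. That region was 1040 bp wide and held percentiles of 74.9, 65.0 and 73.4 in the EYFP and 62.5, 81.6 and 70.2 in the cFos libraries. The last pair lay on chr14:95755890-95756667 and on chr12:94520228-94520729, at mean percentiles of 60.9 and 19.3 and nearest distances of 264311 and 257837 bp.

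Besides the chromosome 17 region of 6140 bp, the widest were on chr17:3079181-3085156 (5976 bp), chr14:84842172-84847316 (5145 bp), chr18:7319532-7324054 (4523 bp) and chr12:14155809-14159981 (4173 bp). They were built differently. All 6 libraries shared 3926 bp of the chromosome 18 region but only 1257 bp of the chromosome 14 region, where EYFP replicate 2 called 5145 bp and cFos replicate 1 called 1321 bp. In all, 170 isolated regions were wider than 2000 bp, or 7.58%, against 9.32% of the other shared regions.

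Isolated regions occurred on every chromosome from 1 to 19, in numbers from 49 on chromosome 19 to 192 on chromosome 2. The share of a chromosome's shared regions that was isolated was lowest on chromosomes 15, 18 and 3 (14.7%, 15.1% and 16.0%) and highest on chromosomes 11, 9 and 7 (25.8%, 25.7% and 25.6%). Chromosome 11 held 6.51% of isolated and 4.59% of other shared regions, and chromosome 3 held 5.97% and 7.70%. Chromosomes with fewer merged regions per Mb tended to have larger isolated shares. Chromosome 7 had 16.5 and chromosome 18 had 35.9 merged regions per Mb of the span between the first and the last. Over the 19 chromosomes Pearson's r between share and density was -0.81 and Spearman's rho -0.87, as a description, since both measures come from the same regions. Chromosome 11 stood above this course, with 27.6 regions per Mb, close to the 27.99 of chromosome 12 and the 28.01 of chromosome 2, where 18.9% and 22.7% were isolated. It also had the most isolated regions per Mb, 1.23, beside 0.728 on chromosome 15.

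**Figure D4:**
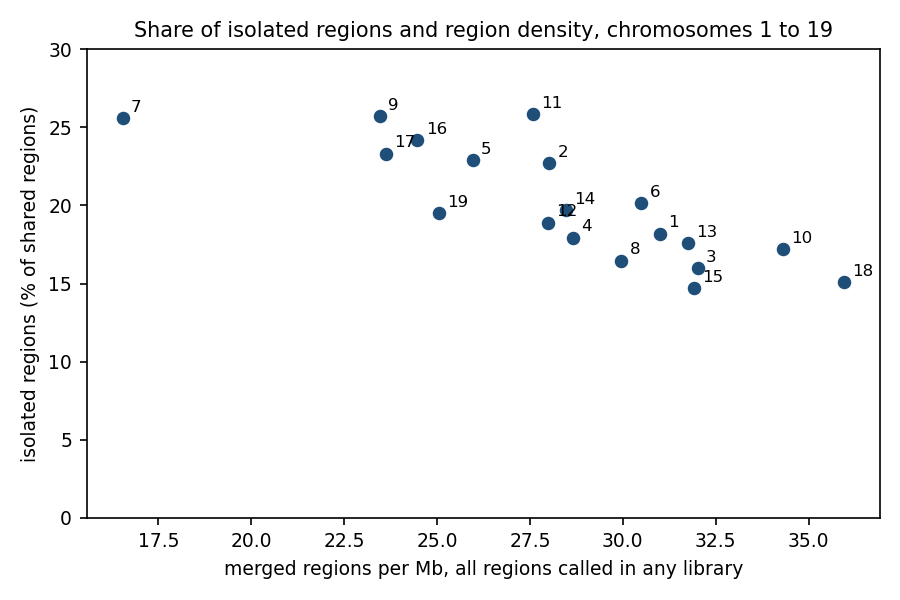
Share of shared regions that are isolated (%) against merged regions per Mb for chromosomes 1 to 19, 1 point per chromosome labelled by its number. The sparsest chromosome, 7, has a share of 25.6% (16.5 regions per Mb) and the densest, 18, a share of 15.1% (35.9 per Mb), while the highest share is on chromosome 11 (25.8% at 27.6 per Mb) and the lowest on chromosome 15 (14.7%).

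The higher rank of isolated regions was found on 17 of the 19 chromosomes. It was largest on chromosome 12, where isolated regions had a median of the mean percentile of 65.7 and other shared regions 43.5. On chromosomes 13 and 15 isolated regions ranked lower, with 48.1 against 50.9 and 38.9 against 41.8.

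Whether cFos delivery went with a different rank of these regions was examined by fitting limma to the percentiles of all 11379 shared regions. No isolated region passed a Benjamini-Hochberg adjusted p of 0.05 in limma in either direction, where the share called over all shared regions was also 0%, and the smallest adjusted p was 0.139. At an unadjusted limma p under 0.05, 97 isolated regions were higher and 123 were lower in cFos, or 4.32% and 5.48%, against 4.84% and 4.27% of all shared regions. With log2 scores centred per library in place of percentiles, limma again called 0 isolated regions after adjustment, with a smallest adjusted p of 0.0565. At an unadjusted limma p under 0.05 the log2 scores gave 97 higher and 103 lower, or 4.32% and 4.59%, against 4.97% and 4.03% of all shared regions. The median standard error of a region's difference was 8.06 percentile points, so only large differences could pass. Percentiles were also simulated with the real spread and normal noise, with differences planted only in regions of middle rank. There limma recovered 0 of 200 differences of 40 points and 148 of 200 of 80 points, with 5 false calls at 80 points. At middle ranks, differences of 40 points were thus not detected in the simulation with 3 libraries a group. Sizes between 40 and 80 points were not simulated.

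By rank, the median difference of isolated regions was slightly toward EYFP. The difference in percentile, cFos minus EYFP, had a median of -0.81 over isolated and 0.09 over other shared regions, and 1025 of the 2244 isolated regions, or 45.7%, were higher in cFos, against 50.4% of the others. The library medians of isolated regions were 54.9 ± 0.671 for cFos and 56.2 ± 1.13 for EYFP (SD, 3 libraries each), a difference of -1.25 points. They overlapped, since cFos replicate 2 (55.52) lay above EYFP replicate 1 (55.45). The size of the median difference depended on single libraries. It was -0.21 without cFos replicate 1, -0.37 without EYFP replicate 2 and -0.44 without cFos replicate 2. It was -0.46 without EYFP replicate 3, -0.53 without cFos replicate 3 and -1.02 without EYFP replicate 1. Over the other shared regions it ran from -0.03 without cFos replicate 1 to 0.33 without cFos replicate 2. On log2 scores centred per library the median difference was 0.03 over isolated and 0.05 over other shared regions, so its sign over isolated regions turned.

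In 137 isolated regions every cFos library ranked above every EYFP library, or 6.11%, against 7.14% over all shared regions. In 178 every cFos library ranked below, or 7.93%, against 6.28%. Along the distance classes, the higher-in-cFos share was 10.7% for shared regions with a neighbour within 5 kb, 6.47% at 5 to 10 kb, 6.12% at 10 to 25 kb and 6.16% for isolated regions at 25 to 50 kb. The lower-in-cFos share ran from 4.62% within 5 kb over 5.93% and 6.58% to 7.73% at 25 to 50 kb and 9.24% at 50 to 100 kb. Beyond 100 kb each direction held 4 of 91 regions. In the higher-in-cFos share, the class within 5 kb stood furthest from the others. These counts and shares are by percentile. On log2 scores centred per library, 189 isolated regions were higher and 144 lower in cFos without overlap. Which direction held more regions thus depended on the scale. The matching shares over all shared regions on log2 scores are not given here. For a single region with 3 libraries against 3, the two-sided exact permutation test cannot go below 0.1.

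Toward cFos the difference was largest at chr11:112642500-112644508, a region of 2009 bp. Its percentiles were 8.5, 3.1 and 5.0 in EYFP replicates 1 to 3 and 61.4, 68.4 and 78.3 in cFos replicates 1 to 3, from scores of 79.85, 95.14 and 73.45 against 205.16, 208.52 and 377.36. The groups were far apart, by 63.8 ± 5.47 percentile points (limma SE, adjusted p = 0.139). Only 58 bp of it were called by all 6 libraries, and nothing else was called for 48454 bp on the left and 27849 bp on the right.

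The next in size was on chr10:26220125-26220909, where the percentiles were 19.4, 2.2 and 28.5 in the EYFP and 38.5, 78.5 and 79.1 in the cFos libraries. Its replicates were more scattered, with a difference of 48.7 ± 13.3 points (limma SE, adjusted p = 0.346). A region on chr14:124158969-124159836 was tighter, at 22.0, 15.7 and 9.2 in the EYFP and 64.1, 61.8 and 63.6 in the cFos libraries, a difference of 47.5 ± 4.62 points (limma SE, adjusted p = 0.139). The remaining 2 of the 5 were on chr1:58416029-58416866 and on chr14:50113390-50114021, with differences of 46.2 and 45.4 points and limma adjusted p-values of 0.329 and 0.294.

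Toward EYFP the largest difference was on chr6:64440497-64441194. Its percentiles were 64.9, 49.96 and 69.5 in the EYFP and 21.6, 11.3 and 2.9 in the cFos libraries, a difference of -49.5 ± 7.48 points (limma SE, adjusted p = 0.232). The peaks were also wider in EYFP, at 516, 666 and 681 bp against 396, 284 and 265 bp. On chr18:26081854-26082941 the percentiles were 63.1, 36.4 and 49.9 in the EYFP and 4.2, 8.2 and 9.0 in the cFos libraries, a difference of -42.7 ± 7.36 points with the same limma adjusted p. That no library of one group reached the values of the other was a condition for naming these regions.

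The 3 others were on chr14:15177450-15179472, chr17:32457364-32459029 and chr19:36422483-36424207, with differences of -43.8, -43.7 and -42.5 points and limma adjusted p-values of 0.283, 0.331 and 0.366. In the chromosome 17 region, cFos replicate 3 (59.7) came within 10 points of EYFP replicate 1 (69.3). Among all isolated regions without overlap between the groups, the median size was 18.3 points for the 137 higher and 17.9 for the 178 lower in cFos. The difference exceeded 30 points in 30 of the 137 and in 26 of the 178. No matching counts for the other shared regions are given here, so these values describe isolated regions only.

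**Figure D5:**
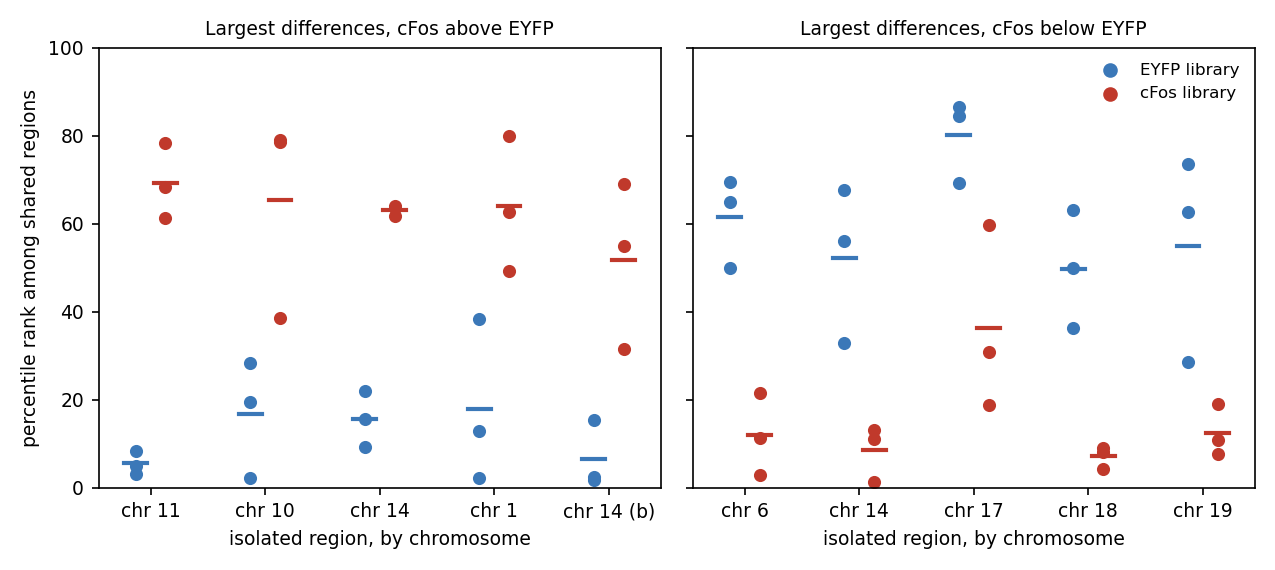
Score percentile in each library for the 5 isolated regions with the largest difference in each direction among those whose groups do not overlap, named by chromosome, with EYFP libraries in blue, cFos libraries in red and short bars at the group means. The widest separation is on chromosome 11 (EYFP 3.1 to 8.5, cFos 61.4 to 78.3), and none of the 10 passed adjustment in limma.

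Peaks in isolated regions were narrower in cFos than in EYFP libraries, as over the shared regions in general. The library medians were 655 ± 47.7 bp for cFos and 856 ± 81.0 bp for EYFP (SD, 3 libraries each), without overlap, and 676 ± 49.1 and 898 ± 92.3 bp in the other shared regions. The median log2 difference in width, cFos minus EYFP, was -0.34 over isolated and -0.36 over other shared regions. In 742 isolated regions, or 33.1%, every cFos peak was narrower than every EYFP peak, against 34% of all shared regions.

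After centring each library on its median log2 width, limma called 0 isolated regions at an adjusted p of 0.05 in either direction, as over all shared regions (0%), with a smallest adjusted p of 0.206. At an unadjusted limma p under 0.05, 119 isolated regions were relatively wider and 61 relatively narrower in cFos, or 5.30% and 2.72%, against 4.02% and 3.73% of all shared regions. Without centring, limma called 1 isolated region narrower in cFos and 0 wider, against 0.0352% and 0% of all shared regions. It lay on chr13:58907644-58910348, with peak widths of 1755, 2690 and 2469 bp in EYFP replicates 1 to 3 and 532, 622 and 796 bp in cFos replicates 1 to 3, a log2 difference of -1.82 (limma adjusted p = 0.0493). The groups did not overlap in width, its percentile ranks overlapped between the groups, and no base was called by all 6 libraries.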

How the data were processed

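The deposited files were peak lists without a header, 1 per library, giving position, a MACS name and a score. The authors' score has no stated meaning, and the caller's version and threshold were not given in the sources used here. Per the submitters' processing notes, alignment used Bowtie2 and mm9. Groups and replicate numbers came from the titles. Merging in Python 3.11.15 (pandas 2.3.3) gave the 68364 regions that bedtools 2.31.1 gives, and an overlap of 1 bp counted as a call. A region took each library's highest score, ranked among the 11379 shared regions, and its summed peak width. Percentiles and log2 widths were fitted with limma 3.58.1 (R 4.3.3), group only, with Benjamini-Hochberg adjustment over all shared regions. On simulated lists 293 of 293 planted isolated sites were found.

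Named regions were the 8 highest and 5 lowest by mean percentile, the 5 most remote, the 5 widest, the 5 largest differences each way among regions whose groups did not overlap, and 3 on each side of the distance limit. The chromosome 13 region called without centring, the narrow top-ranked regions and the chromosomes singled out were chosen after their values were seen. Members and lists were chosen with earlier results of these data known. Same-numbered libraries did not deviate together (correlations of -0.046, -0.027 and 0.037 over the percentiles), so no pairing was assumed. No label gives a batch. Genes, motifs and sequences were planned for the case of an mm9 reference and were not analysed here, since the gene table at hand is on GRCm38.p6. Alternatives covered the distance limit, score threshold, list length, merging, coverage, chromosome X, neighbours, each library and the limma settings.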

Additional observations from a re-analysis of the deposited data

How the results depend on the processing

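Isolation depends on its limit: 10 kb gave 6148 regions (54.0% of shared) and 50 kb gave 589 (5.18%). The rank gaps were 12.6 and 3.79 points and the width gaps 11.3 and -77.25 bp. Non-overlapping regions numbered 376 (6.12%) and 35 (5.94%) higher and 435 (7.08%) and 50 (8.49%) lower in cFos. Over all shared regions the shares were 7.14% higher and 6.28% lower. Counting only neighbours called in 2 libraries gave 4132 (36.3%). Of these, 263 were higher (6.36%) and 305 lower (7.38%), against 7.14% and 6.28% of all shared regions. Requiring 50% coverage gave 1177, with a width gap of -5.58 bp. There 68 were higher (5.78%) and 96 lower (8.16%), against 6.57% and 6.37% of all shared regions. Scores above 100 gave a share of 49.4% and a rank gap of 4.15 points, and equal-length lists (23088 peaks) 31.4%; fewer peaks leave larger gaps between regions. Without any 1 library the number was 2484 to 2730 and the share 20.3% to 23.6%. The non-overlapping regions then numbered 263 to 307 higher and 308 to 389 lower, where 2 against 3 libraries overlap less often. Their shares were 10.1% to 11.9% higher and 11.4% to 14.2% lower. Over all shared regions in the same settings the shares were 11.4% to 12.9% higher and 10.4% to 11.98% lower. The rank gap kept its direction under all 14 alternatives run for it. The median group difference turned to 0.0302 on log2 scores. On that scale the non-overlapping regions numbered 189 higher and 144 lower in cFos, against 137 and 178 by rank. Their share over all shared regions on log2 scores is not given here. Limma called 0 isolated regions by score under 17 alternatives, with log2 scores and a replicate block (0 higher, 0 lower) among them. By width it called 0 in 10 of 11, with the replicate block among those, and 1 narrower region without centring. A variance trend in limma was added after seeing the data. The number of animals, 3 a group, limits all group differences.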

Other observations

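Chromosome X was outside the rule and was examined with the same steps. It held 2211 merged regions, of which 458 were called in all 6 libraries and 144 of those were isolated, or 31.4%, above every autosome (14.7% to 25.8%). It was also the sparsest, with 13.6 merged regions per Mb. Its isolated regions had a median merged width of 1160 bp against 1136.5 bp for its other shared regions, the opposite order from chromosomes 1 to 19.

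Isolation was about equally frequent among regions called in every library of 1 group and in none of the other. On chromosomes 1 to 19, 64 of 313 such cFos regions and 277 of 1340 such EYFP regions had no other region within 25000 bp, or 20.4% and 20.7%, beside 18.3% of all merged regions.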
